A study of Mus musculus with 6 samples.

Results

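Transcripts of the T cell receptor gene segments were examined in kidneys from 3 MRL and 3 LPR mice. MRL mice are the MRL/MpJ strain, and LPR mice are MRL/MpJ-Fas lpr/lpr, the same strain with the lpr mutation of the death receptor Fas in both copies. All were females of 6 months, no treatment is named for either group, and each kidney was hybridised to 1 single-colour array. LPR mice serve as a model of systemic lupus erythematosus, and both groups share the MRL background. A feature of the array (a probe) was taken as a T cell receptor segment when it lies on chromosome 6, 13 or 14 and either its annotation names a T cell receptor or its gene symbol is that of a receptor segment. This gave 126 of 56605 probes, under 111 different labels, of which 69 belong to the alpha chain, 30 to beta, 11 to gamma and 8 to delta. A further 7 are variable segments that alpha and delta chains share, and 1 names no chain. By role, 109 probes lie in variable segments, 10 in constant regions and 7 in other transcripts of these loci.

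The T cell receptor is a pair of chains, alpha with beta or gamma with delta, by which a T cell recognises its target. Each chain joins a variable segment to a constant region that many receptors of that kind share. The variable segment is chosen from many in the germline and rearranged in the developing T cell. A constant region probe therefore reads the T cells whose chain uses that region, whereas a variable segment probe reads only the cells that chose that segment. The array holds probes for 2 beta and 3 gamma constant regions. The receptor reaches the cell surface together with the CD3 proteins. Whole kidney was measured, so more T cells and more receptor RNA per T cell cannot be told apart in any of the values given here.

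Each probe is 1 oligonucleotide of 60 bases. The sequences on which the results turn are printed 5′ to 3′ as the array files give them, with positions in mm9. The pair for the beta constant regions is shown because Trbc1 and Trbc2 are near copies. The Trbc1 probe lies at chr6:41488583-41489260 and the Trbc2 probe at chr6:41497058-41497622, both on the plus strand, and capitals mark a run of 16 bases that the probes share. The genomic spans are 678 and 565 bases, so neither probe is contiguous in the genome.
Trbc1: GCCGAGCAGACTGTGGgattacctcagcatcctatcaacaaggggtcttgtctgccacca
Trbc2: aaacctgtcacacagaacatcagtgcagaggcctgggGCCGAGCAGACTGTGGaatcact
The constant regions of the alpha, gamma and delta chains are shown next, with no marked letters. The Trac probe lies at chr14:54841802-54842701, the Trgc1 probe at chr13:19308428-19308487 and the Trdc probe at chr14:54762764-54763464, all on the plus strand.
Trac: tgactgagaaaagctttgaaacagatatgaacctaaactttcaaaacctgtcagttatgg
Trgc1: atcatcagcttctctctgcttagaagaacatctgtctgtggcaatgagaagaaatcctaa
Trdc: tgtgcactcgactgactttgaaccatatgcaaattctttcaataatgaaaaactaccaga
Variable segments are often near copies of each other, which bears on whether a probe can read 1 of them alone. The Trgv3 probe (chr13:19334939-19334998) and the Trgv1 probe (chr13:19432102-19432161) share the run of 37 bases in capitals.
Trgv3: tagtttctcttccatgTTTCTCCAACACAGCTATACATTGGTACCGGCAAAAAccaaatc
Trgv1: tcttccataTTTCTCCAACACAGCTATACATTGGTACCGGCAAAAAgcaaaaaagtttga
The probes of Trav9d-1 (chr14:53412323-53412382) and Trav9n-4 (chr14:53914576-53914635) differ only at the 6 letters in capitals, so their signals cannot be taken as separate segments.
Trav9d-1: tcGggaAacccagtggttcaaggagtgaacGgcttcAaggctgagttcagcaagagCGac
Trav9n-4: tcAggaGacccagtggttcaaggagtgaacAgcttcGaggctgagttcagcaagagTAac
The probe of Trbv10 (chr6:41009810-41009869) and both probes of Trdv5 (chr14:54768847-54768906 and chr14:54768392-54768451, minus strand) are printed next. Trbv10 was above background in LPR kidneys only. One probe of Trdv5 was the only delta chain probe that could be tested, and it was called lower.
Trbv10: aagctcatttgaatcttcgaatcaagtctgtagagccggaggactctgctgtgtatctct
Trdv5, tested probe: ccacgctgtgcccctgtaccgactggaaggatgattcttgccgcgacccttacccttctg
Trdv5, dim probe: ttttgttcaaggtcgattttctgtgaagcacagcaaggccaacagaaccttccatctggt

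Values are log2 signals relative to the 75th percentile of the same array, so that a difference of 1 is a doubling, and the level of 1 probe is never set against that of another. The scanner software marks each signal as well above background or not. Over all probes that are not controls, 69.6% to 73.5% were so marked in a mouse, no probe signal was saturated, and the upper quartile of the array intensities ran from 706 to 942. A probe was tested with limma if it was well above background in at least 3 of the 6 mice, and a call needed an adjusted p under 0.05. Over the whole array 6.53% of the 39924 tested probes were higher in LPR and 6.17% were lower, and the median change of tested probes was -0.14. The Fas probe with the strongest signal had a change of -0.47 (SE 0.24, adjusted p = 0.234), and the other Fas probe was called higher. The Fas probes therefore do not serve as a check of the genotype labels.

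More receptor segments were detected in LPR kidneys than in MRL kidneys. Of the 126 probes, 30, 37 and 40 were well above background in MRL mice 1, 2 and 3, and 67, 66 and 64 in LPR mice 1, 2 and 3. The groups did not overlap. Over all probes that are not controls the shares were 69.6%, 70.6% and 69.9% in MRL and 73.5%, 70.7% and 70.9% in LPR. These shares did not overlap either, so the lack of overlap is not particular to the receptor segments. For the beta chain the numbers were 9, 11 and 11 of 30 in MRL and 20, 20 and 18 in LPR. For the alpha chain they were 18, 22 and 24 of 69 in MRL and 37, 37 and 36 in LPR. The gamma chain had 1, 2 and 3 of 11 in MRL and 7, 6 and 7 in LPR. The delta chain had the same single probe, out of 8, in all 6 mice.

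**Figure D1:**
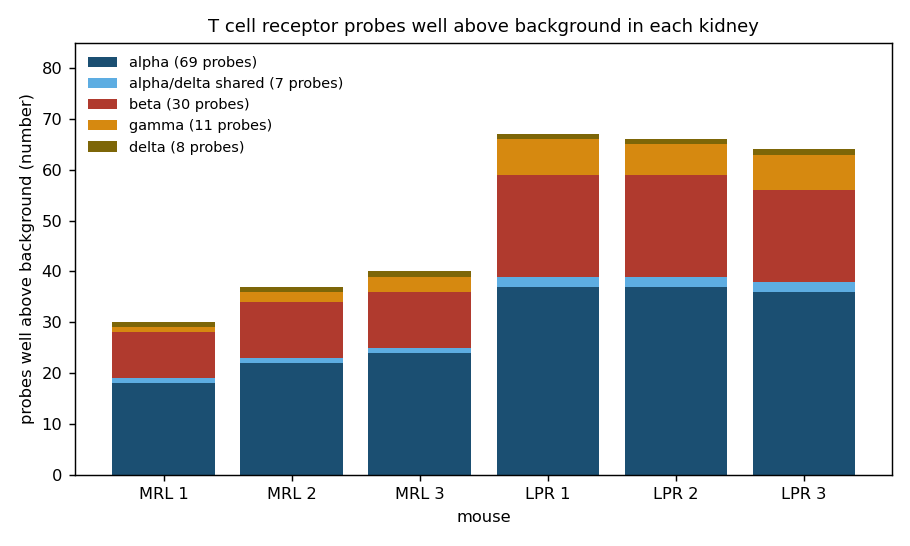
Number of T cell receptor probes well above background in each kidney, stacked by chain (x axis, mouse; y axis, number of probes). The 3 LPR mice show 64 to 67 probes and the 3 MRL mice 30 to 40, and the delta chain adds 1 probe in every mouse.

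There were 16 probes (12.7%) that were well above background in all 3 LPR mice and in none of the MRL mice, against 0.843% of all probes on the array. The opposite pattern, all 3 MRL and no LPR mice, did not occur among the 126. It was rare on the whole array too, at 44 of 56605 probes, so its absence is not particular to the receptor segments. A large share of the segments stayed dark: 50 of the 126 (39.7%) were not well above background in any mouse, against 24.1% of all probes. Another 17 were seen in 1 or 2 LPR mice and in no MRL mouse, and 1, Trav18, in 1 mouse of each group, so 68 in all were too dim to be tested. The dark segments include 25 of the alpha chain, 5 of the shared ones, 8 of beta, 4 of gamma and 7 of delta. Those seen in some LPR mice only were 11 of alpha, 5 of beta (Trbv12-2, Trbv19, Trbv29, a second Trbv16 probe and 1 of the Trbv30 probes) and 1 of gamma.

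Of the 58 probes tested, 32 were higher in LPR, 2 were lower and 24 did not pass. These 32 are 55.2% of the tested segments, beside the 6.53% given for the array. The filter lets a segment in through the LPR mice alone, so the share is not one of all segments, and over all 126 the higher calls come to 25.4%, beside 4.6% of all probes on the array. Of the 32 higher, 15 were not well above background in any MRL mouse, 5 were so in 1 or 2 MRL mice, and 12 were measured in all 6 mice. Of the 15 without an MRL signal, 8 were still called when dim signals were raised to the detection limit. Among the 27 segments well above background in every mouse, 12 were higher, beside 5.46% of all probes of that kind. With another background correction, normexp, 15 segments were higher, 2 of them of the alpha chain, and normexp adds an offset of 50 to every signal. The median change over the 126 was 0.64, beside -0.17 over all probes. With dim signals raised to the detection limit of each array the median was -0.03, beside -0.24 over all probes, so its sign depends on how dim signals are treated. The detection limit itself was lower in LPR by 0.26 (log2), and a segment at that limit in every mouse takes a change of -0.26.

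**Figure D2:**
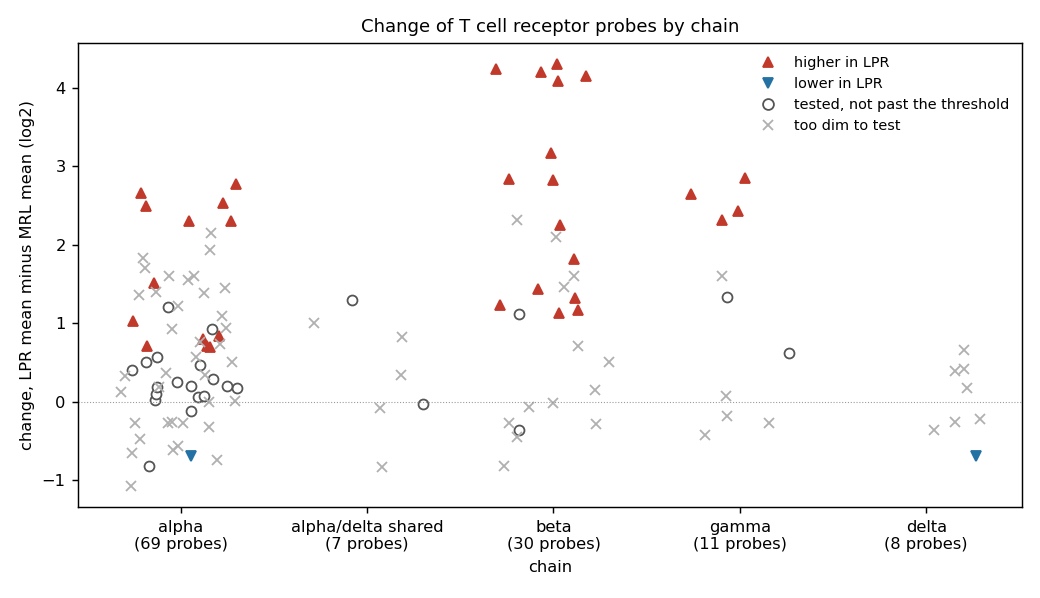
Change of each probe (y axis, LPR mean minus MRL mean, log2; n = 3 mice per group) by chain (x axis), with the call as the symbol. Beta chain probes reach 4.30, delta chain probes include no higher call, and the changes of crosses (too dim to test) are not measured on both sides.

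Among the constant regions, the largest measured changes were those of the beta chain. The first Trbc1 probe, printed above, had log2 signals of -2.42, -2.02 and -2.52 in MRL and 1.75, 1.90 and 1.96 in LPR. Every LPR mouse lay above every MRL mouse by a wide margin, and the change was 4.19 (SE 0.16), or 18.3-fold (adjusted p = 1.59e-05, limma). The second Trbc1 probe rose from -3.88 ± 0.20 to 0.21 ± 0.15 (SD, n = 3 each), a 17.0-fold difference. The printed Trbc2 probe read -2.63, -2.68 and -2.78 in MRL against 1.42, 1.51 and 1.71 in LPR, an 18.9-fold difference (adjusted p = 7.47e-06). The other Trbc2 probe gave 19.7-fold. The 4 probes thus lay between 17.0 and 19.7-fold, although the shared 16 bases mean that the Trbc1 and Trbc2 probes printed above may each read some RNA of the other gene.

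Trac, the constant region of the alpha chain, read -4.42, -4.19 and -3.97 in the 3 MRL mice and -1.54, -1.32 and -1.39 in the 3 LPR mice. The groups did not overlap, and the rise was 6.84-fold (2.77 on the log2 scale, SE 0.14, adjusted p = 5.57e-05). Trac and Trbc1 encode the invariant parts of the chains of 1 receptor, but the measured changes differed by -1.42 (Trac minus Trbc1, log2, SE 0.22). The exact permutation test over the 6 mice gave p = 0.1 (two-sided), the smallest that 3 against 3 allows, and 0.15 adjusted over the 3 pairs of chains compared.

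Of the gamma constant region probes, 3 were tested and 2 were higher in LPR. Trgc1 read -6.73, -6.58 and -6.86 in MRL, not well above background in any mouse, and -4.21, -4.34 and -3.68 in LPR. It was at least 3.67-fold higher in LPR (adjusted p = 0.000211). This bound sets the LPR mean against the detection limit of the MRL arrays, as for every "at least" below. The adjusted p beside such a bound is that of limma for the fitted change, not for the bound. With dim signals at the detection limit Trgc1 kept its call (limma adjusted p = 0.000447). Trgc3 read -6.84, -5.76 and -5.75 in MRL, well above background in 2 of the 3 mice, and -3.77, -3.82 and -3.48 in LPR, a 5.38-fold rise (adjusted p = 0.00285). The brighter Trgc4 probe had -6.03, -6.94 and -5.51 in MRL and -4.78, -5.21 and -4.49 in LPR, and did not pass (change 1.33, SE 0.37, adjusted p = 0.0593, and 0.0345 without MRL mouse 3). It did pass with the replicate block (adjusted p = 0.0168), the slide column as a block (0.0439), a floor at the detection limit (0.0242), a median shift (0.0483) and an intensity trend (0.0447). It did not pass with normexp (change 0.11, limma adjusted p = 0.422) or with the slide row as a block (limma adjusted p = 0.23). The second Trgc4 probe was above background in 2 LPR mice only and was not tested. The change of Trac exceeded that of Trgc3 by 0.35 (SE 0.28, exact p = 0.3), and by 0.67 with the dim Trgc3 signal of MRL mouse 1 raised to the detection limit (SE 0.15, exact p = 0.1). That of Trbc1 exceeded Trgc3 by 1.77 (SE 0.35, exact p = 0.1, 0.15 adjusted), and by 2.09 with the raised signal.

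Trdc, the only constant region of the delta chain, was not well above background in any mouse. Its signals were -7.91, -8.04 and -8.02 in MRL and -8.14, -7.07 and -6.78 in LPR. Both groups overlap below the detection limits, which were -6.41 to -5.88, so no fold is given, and a delta chain RNA below the reach of this probe was not detectable. Gamma chains pair with delta chains at the surface, and here constant regions of the gamma chain were measured in LPR kidneys while that of the delta chain was not.

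**Figure D3:**
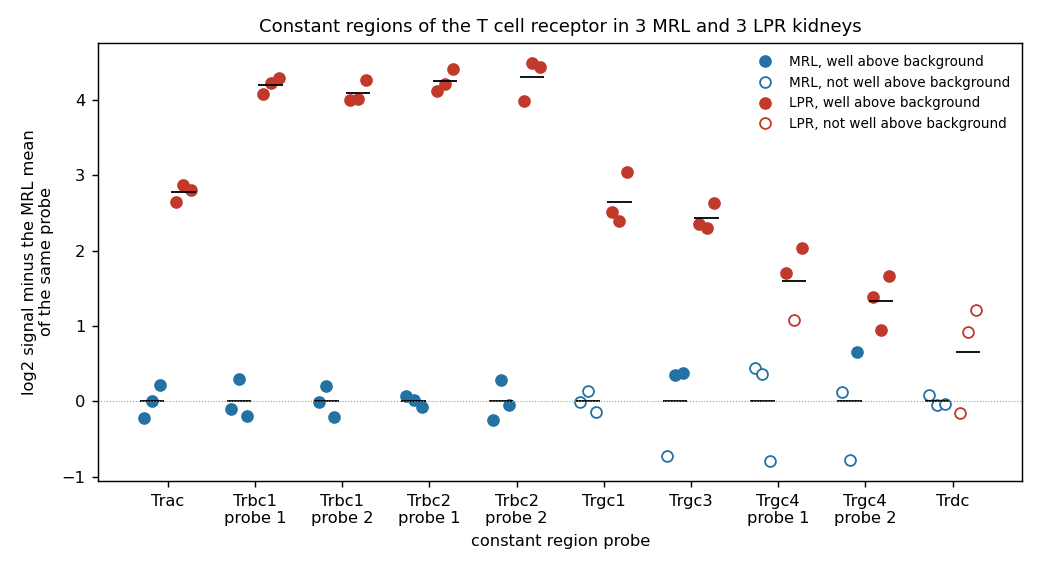
Log2 signal of the 10 constant region probes in each mouse after subtraction of the MRL mean of the same probe (y axis), with MRL in blue, LPR in red, a bar at each group mean and open circles for signals not well above background. The 4 Trbc probes sit near 4, Trac, Trgc1 and Trgc3 between 2 and 3, and all Trdc signals are open.

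In the beta chain, 25 probes lie in variable segments, 12 were tested and 10 were higher in LPR. None was lower. Trbv10, a variable segment detected in LPR only, read -8.06, -8.17 and -8.17 in MRL, not well above background, and -4.32, -3.79 and -3.85 in LPR, at least 3.91-fold higher (adjusted p = 1.79e-05). The other variable segments of the beta chain fall outside the naming rule and are given with their values known. Trbv1 was at least 2.95-fold higher, Trbv2 at least 2.41-fold, Trbv14 at least 1.79-fold, Trbv31 at least 1.54-fold and Trbv20 at least 1.41-fold, all with no MRL mouse above background. With dim signals at the detection limit, on which the bounds rest, Trbv14, Trbv31 and Trbv20 lost their call (limma adjusted p = 0.122, 0.0983 and 0.188). They also lost it with normexp (limma adjusted p = 0.237, 0.0713 and 0.423), whereas Trbv1 and Trbv2 kept theirs in both settings. Trbv31 is the segment that lies beyond the constant regions in the opposite orientation, 19.5 kb from the Trbc1 probe. Trbv14 passed at adjusted p = 0.0391 and lost the call without MRL mouse 1 or 2 or LPR mouse 2 or 3 (adjusted p = 0.0946 to 0.112).

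The 4 beta variable segments that rose and were above background in all 6 mice changed by a narrow range of folds. Trbv5 read -4.57, -4.31 and -4.52 in MRL and -3.11, -3.19 and -3.12 in LPR, a 2.51-fold rise (adjusted p = 0.000448). The Trbv13 family, neighbours in the genome, rose together: Trbv13-1 by 2.24-fold, Trbv13-2 by 2.34-fold and Trbv13-3 by 2.19-fold. Trbv13-3 had the tightest values, -4.57 ± 0.04 in MRL and -3.45 ± 0.03 in LPR (SD, n = 3). The Trbv13-2 and Trbv13-3 probes share a run of 17 bases. Trbv16 was also above background in every mouse but read -4.71, -4.41 and -4.89 in MRL and -5.28, -5.27 and -4.52 in LPR, and the change of -0.35 did not pass (SE 0.24, adjusted p = 0.349). Its second probe had a change of the other sign, with 2 LPR mice and no MRL mouse above background. Trbv17 had a change of 1.12 and did not pass (adjusted p = 0.0607, and 0.0338 without LPR mouse 2). A partial beta chain mRNA that the array annotation leaves without a segment name, 5.09 kb before the leftmost Trbc1 probe, was 2.69-fold higher with 2 of 3 MRL mice above background.

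In the alpha chain, 65 probes lie in variable segments, 29 were tested, 11 were higher and 1 was lower. With the constant region and the other transcripts 13 alpha probes were higher, and 8 without LPR mouse 3. Trav9n-4, Trav9d-1 and Trav13-1, named for their fitted changes, were not above background in any MRL mouse, so only a lower bound of each rise is known. Trav9n-4 read -8.15, -7.77 and -7.32 in MRL and -5.12, -5.18 and -4.98 in LPR, at least 1.81-fold higher (adjusted p = 0.000337). Trav9d-1, whose probe nearly equals that of Trav9n-4, was at least 1.33-fold higher, and Trav13-1 at least 1.24-fold (adjusted p = 9.38e-05 for the fitted change). With dim signals at the detection limit, on which the bounds rest, both lost their call (adjusted p = 0.316 and 0.195), and with normexp all 3 did (adjusted p = 0.0649 to 0.372). The 6 higher segments without an MRL signal had bounds from 1.11 to 1.81-fold, so these dim rises are of unknown size. A further alpha chain probe is named for a nonproductive mRNA, a transcript whose rearrangement encodes no chain. This probe covers 60 contiguous bases of the genome, so it may also read other transcripts that hold this stretch. Its signals were -6.33, -6.32 and -5.80 in MRL and -3.79, -4.08 and -3.68 in LPR. It rose with 1 of 3 MRL mice above background (adjusted p = 0.000372), by 2.05 on the log2 scale with dim signals at the detection limit.

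Many alpha segment probes were well above background and did not pass. Of the 14 alpha variable probes well above background in all 6 mice, 3 were higher (Trav3d-3 by 1.78-fold, Trav13-2 by 1.74-fold and Trav4d-3 by 1.63-fold), 1 was lower and 10 did not pass, with changes of -0.12 to 0.93. Trav3d-3 lost its call without any 1 of the LPR mice (adjusted p = 0.0509 to 0.06), and Trav13-2 without MRL mouse 1 or 3 or LPR mouse 2 or 3 (adjusted p = 0.0905 to 0.118). Trav2 read -1.59, -1.60 and -1.67 in MRL and -1.63, -1.48 and -1.46 in LPR (change 0.10, SE 0.10, adjusted p = 0.553). Trav7d-3 read -2.76, -2.71 and -3.04 against -2.99, -2.66 and -2.79 (change 0.03, SE 0.14). In both the groups overlapped, beside the 6.84-fold rise of Trac in the same mice. Several alpha segments have probes with changes of opposite sign. Trav3-4, Trav6-3, Trav12-1 and the shared Trav14d-3-dv8 do, and the opposite sign was in each case that of a probe without a signal above background. In the beta chain, 8 of the 9 probes above background in all mice were higher, counting constant regions, and in the alpha chain 4 of 15. The 2 chains were not tested against each other on these counts, since probes of 1 locus in the same mice are not replicates.

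Trav1 was the alpha segment that fell. It is the variable segment farthest from Trac on the array, at -1793 kb from its probe (chr14:53048492-53048551). Its signals were -1.87, -2.07 and -2.10 in MRL and -2.81, -2.70 and -2.60 in LPR, all well above background and without overlap. The change was -0.69 (SE 0.12, adjusted p = 0.0111), which is 1.61-fold lower in LPR. The call was lost with the slide column (adjusted p = 0.0966) or the slide row (adjusted p = 0.0523) as a block. Trdv5, a variable segment of the delta chain in inverted orientation, was the other. Its tested probe read -3.23, -3.37 and -3.28 in MRL and -4.29, -3.73 and -3.95 in LPR, 1.62-fold lower (adjusted p = 0.0325). The second Trdv5 probe, 455 bases away on the same strand, was not well above background in any mouse, so the probes of this segment do not give the same picture. The fall of Trdv5 lost its call when any single mouse but LPR mouse 2 was left out (adjusted p = 0.0535 to 0.0981), and the 2 lower calls among 58 tested segments stand beside the 6.17% given for the array.

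**Figure D4:**
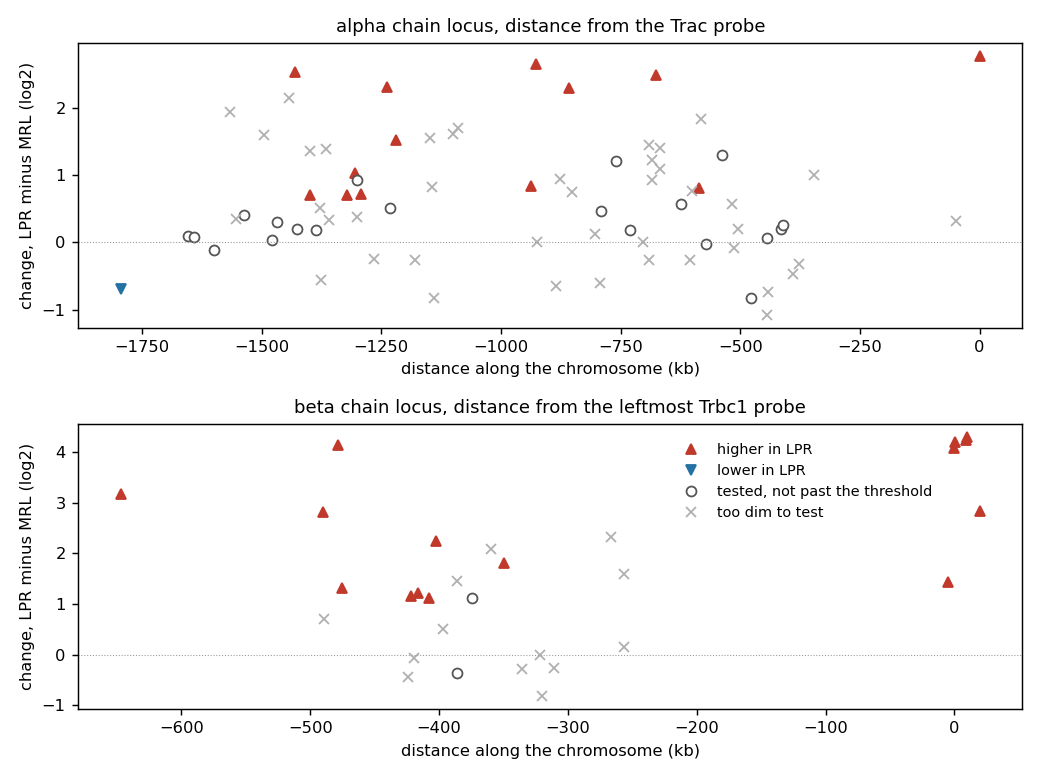
Change of each probe (y axis, LPR minus MRL, log2) against its distance from the constant region probe (x axis, kb) for the alpha chain locus with the shared segments (top) and the beta chain locus (bottom). Higher calls occur along both loci, and the lower call of the alpha chain is Trav1 at the far left.

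In the gamma chain the variable segments split. Trgv3 read -7.25, -7.99 and -7.42 in MRL and -4.86, -4.96 and -4.29 in LPR, at least 2.38-fold higher (adjusted p = 0.000582). Trgv1 was at least 2.79-fold higher (adjusted p = 0.00219), and with 37 shared bases the probes cannot be taken to read the segments apart. With normexp both Trgv3 and Trgv1 lost their call (limma adjusted p = 0.0552 and 0.0712). With dim signals at the detection limit both kept it (limma adjusted p = 0.0046 and 0.0021). The other 4, Trgv4, Trgv5, Trgv6 and Trgv7, were not well above background in any mouse. A transcript labelled Tcrg-V1 was above background in all mice with a change of 0.62 that did not pass (SE 0.24, adjusted p = 0.144). The array annotation describes this transcript as part of Trgc2, a constant region, although it is counted here with the other transcripts. Its probe was the only gamma chain probe well above background in every mouse. Of the 7 variable segments shared by the alpha and delta chains, 2 were tested and neither passed. Trav4-4-dv10 had a change of 1.30 (SE 0.44, adjusted p = 0.1) with all 3 LPR mice and no MRL mouse above background, and Trav15-2-dv6-2 one of -0.03.

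Most genes that carry the receptor and pass on its signal were higher in the same LPR mice. Of 15 genes of the receptor complex and its signalling, 14 were tested, 12 were higher, none was lower and 2 did not pass by the tested probe with the strongest signal. Their median change was 2.68. Cd3g and Cd3d, which encode chains of the CD3 complex, rose 17.7-fold and 17.6-fold. Cd3d read -2.66, -2.43 and -2.78 in MRL and 1.33, 1.69 and 1.52 in LPR, with no overlap. Cd3e rose 3.71-fold. Cd247, the zeta chain, had a change of 0.16 that did not pass (adjusted p = 0.464), although other probes of the gene were called higher.

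The kinases and adaptors downstream of the receptor rose. Lck, the kinase bound to the coreceptors, rose 11.5-fold, and Zap70, which binds the phosphorylated CD3 chains, 10.8-fold. Lcp2 and Lat, adaptors, rose 11.0-fold and 6.43-fold. The costimulatory receptor Cd28 rose 9.60-fold. The coreceptors moved less: Cd8b1 rose 3.81-fold and Cd4 1.45-fold (adjusted p = 0.0356, and 0.0526 to 0.111 without any 1 mouse), and Cd8a had a change of 0.02 (SE 0.12, adjusted p = 0.912). Themis was at least 1.36-fold higher, but it lost its call with normexp and with dim signals at the detection limit (limma adjusted p up to 0.131). The other Themis probes and Trat1 were too dim to be tested. Genes of receptor rearrangement and of the pre-receptor of thymocytes gave no rise. Rag1 and Rag2, the recombinase, and Ptcra, the alpha chain of the pre-receptor, were not well above background in any mouse, and Dntt, which adds bases at the joints, had a change of -0.25 that did not pass (adjusted p = 0.157).

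Markers of other cells moved in the same mice. Of 6 general T cell genes 5 were higher, from Thy1 at 7.52-fold to Cd2 at 24.9-fold. Bcl11b did not pass by its tested probe with the strongest signal, although its other probe was called higher. Of 4 B cell genes 3 were higher (among them Cd79b by 7.12-fold and Cd79a by 3.67-fold), and of 4 macrophage genes 3 were higher. Of these Cd68 rose 8.59-fold, whereas Adgre1 lost its call without any 1 mouse but MRL mouse 3 (adjusted p = 0.0685 to 0.0863) and Csf1r without any 1 mouse but MRL mouse 1 (adjusted p = 0.057 to 0.107). Of 4 NK cell genes 1 was higher (Eomes, 10.8-fold), Ncr1 did not pass (adjusted p = 0.1, and 0.00646 without MRL mouse 2), and Klrb1c and Klre1 were too dim to be tested. Of 5 genes of gamma delta and innate-like T cells none was higher. Sox13 and Zbtb16 did not pass, and Blk and Il17a were too dim to be tested. The 8 kidney genes were well above background in every mouse, and of these 1 was lower (Lrp2, by 0.39, adjusted p = 0.0492, and 0.0764 to 0.154 without any 1 mouse) and 7 did not pass. The other probes of Lrp2 did not pass. The part of cell composition in the receptor values was not tested.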

How the data were processed

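RNA of 6 kidneys, 1 per mouse, was labelled with Cy3 and hybridised to 1 slide. The deposited values are intensities written by Agilent Feature Extraction 12.0.3.1, background-subtracted by the authors and not scaled between arrays. A second table that the authors deposited holds these intensities divided by a 75th percentile per array, and it served as an alternative.

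Log2 intensities were shifted so that the 75th percentile of every array lay at 0, without outlier spots. Probes well above background on 3 or more arrays, 39924 in all, were fitted with limma 3.58.1 (R 4.3.3), and p-values were adjusted over them by Benjamini-Hochberg. The fit was tested on simulated data. With 3 arrays a group, precision is limited by their number. The limma p-values set a change against the spread between these mice, moderated by the spread pooled over the tested probes.

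The receptor segments and gene lists were chosen with earlier results of these data known. Named are all constant regions, per chain the 5 largest rises and 3 largest falls among called probes without overlap, segments whose probes differ in sign, and the listed genes. Segments named beyond this were chosen after their values were seen. Names are those of the array annotation, and 120 of 126 probes matched a current symbol. Some genes of the lists are not reported here by name and remain in the counts. No genome was used here. The alternatives covered background correction, scaling, filters, slide position, the replicate number, the methods' t-test and each mouse left out. The detection limit as a floor for differences between constant regions was added after seeing the data.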

Additional observations from a re-analysis of the deposited data

How the results depend on the processing

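The 4 Trbc probes, Trac, Trgc1 and Trbv10 kept their direction and call under all alternatives that could test them, with changes of 3.07 to 4.46 for the Trbc probes and 1.71 to 2.95 for Trac. Of the 34 called segments, 14 kept the call under every alternative that tested them (9 under all 19, and 5 under 18, as the filter on all 6 arrays left them out) and 20 lost it under at least 1, and 7 of the 24 uncalled ones gained it. Trgc3 lost its call with the slide row as a block (2.35, adjusted p = 0.0526). With normexp, 15 segments were higher (alpha 2, gamma 2), the median change was -0.016, and Trav12n-3 turned to -0.00398. With a floor at the detection limit the median was -0.0273. With a filter on all 6 arrays, 12 were higher (alpha 4, beta 8, gamma 0), since fewer segments were tested. The slide row as a block left 6 alpha segments higher, and within the row that held both groups (LPR mouse 1 against the 3 MRL mice) Trac differed by 2.65 and the printed Trbc1 probe by 4.07. The methods' t-test left 7 alpha segments higher. The lower calls numbered 1 with no filter, 0 with the slide column as a block, 1 with the replicate block and 1 with the methods' t-test. Leaving out 1 mouse at a time, 26 to 32 segments were higher (alpha 8 to 12, beta 14 to 15) and 1 to 2 lower, and the alpha count was 8 without LPR mouse 3. The median change then lay between 0.51 and 0.77. The tested probes were kept fixed, and a group left with 2 mice shared the pooled spread. With the replicate block 32 segments were higher, as without it. Mice of the same number correlated at 0.115, 0.020 and 0.005 in their deviations, so the numbers were not taken as pairs. Delta had 0 higher calls throughout by limma and the methods' t-test. Whole-array calls under normexp were 2532 higher and 4498 lower. The causes were not tested.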
